A study of Homo sapiens with 6 samples.

Results

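The clustered replication-dependent histone genes are the copies from which a dividing cell makes the histones that package newly copied DNA. They were found by the symbol in the probe annotation, as the genes whose symbol begins H2AC, H2BC, H3C or H4C and a digit or is H1-1 to H1-6, on array probe sets (the sets of short probes that read 1 transcript) that carry a single gene symbol. The older prefixes HIST1H, HIST2H, HIST3H and HIST4H were searched too, but the annotation holds current symbols and none begins so. This gave 58 of the 18417 genes tested. The rule keeps the probe set with the highest mean where a gene has several, but each of the 58 genes had 1 such probe set, so no measured value chose a member. The copies are near-identical in sequence, and a probe set named for one copy may also catch RNA of another. H4C14 and H4C15 had the same value in all 6 arrays and were counted once, which leaves 57 values. A further 20 probe sets list a histone symbol together with other symbols, and no gene was named from them.

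RNA came from A673 and SK-N-MC, a pair of established human Ewing tumor cell lines, and each line is a single line standing for the tumor type. The 6 arrays were A673 with siRNA 2 against STEAP1, A673 with siRNA 3 against STEAP1, the A673 control, SK-N-MC with siRNA 2 against STEAP1, SK-N-MC with siRNA 3 against STEAP1, and the SK-N-MC control. STEAP1 encodes a membrane protein of the metalloreductase family, and a short interfering RNA (siRNA) lowers the transcript it matches. All arrays, controls included, came from cells given siRNA at 5 nM for 48 h, harvested at 80% confluency, with 200 ng of total RNA entering the labelling. The control siRNA is not named, the A673 control carries the number 2 in the labels and the SK-N-MC control carries none. Separate cultures are not stated in the labels. The p-values therefore describe nothing beyond the spread among these 6 arrays, and no spread between controls can be had from 1 control array a line.

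In the chromatin of human cells, H2A, H2B, H3 and H4 form the protein core around which DNA is wound, and H1 binds the linker DNA where it enters and leaves. The replication-dependent copies lie mostly in a large cluster on chromosome 6 and smaller ones on chromosome 1, are transcribed mainly in S phase under NPAT, a coactivator switched on by cyclin E with CDK2, and give mRNAs that end in a stem-loop bound by SLBP in place of a poly(A) tail. The labelling kit named in the labels is a whole-transcript kit, which uses random primers and so also reads RNA without a tail.

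STEAP1 was at a log2 intensity of 4.53 and 4.59 in the A673 siRNA 2 and siRNA 3 arrays, against 6.23 in the A673 control. In SK-N-MC it was at 4.17 and 4.73 with siRNA, against 7.15 in the SK-N-MC control. Correlations of pairs of arrays were taken over the 58 histone genes, with the shared value of H4C14 and H4C15 entered for each. They ranged from 0.986 to 0.992 within a line and from 0.648 to 0.673 between lines. For all genes they ranged from 0.986 to 0.993 within and from 0.946 to 0.949 between lines. These correlations are over genes, which are not independent. Of 9 Ewing markers measured, the target STEAP1 among them, 8 were at a log2 of 4 or more in each A673 array and 9 in each SK-N-MC array. CD99 lay between 9.40 and 10.25, and the dimmest marker in A673 arrays lay at 2.47 to 2.65. The line differences of the 9 ran from -1.67 to 0.75. The leukocyte markers CD3E, PTPRC and CD14 and the endothelial markers PECAM1, CDH5 and VWF lay between 1.01 and 2.15. Of the 5 fibroblast markers, 4 were lower in A673, with COL1A2 at 6.74 to 7.48 in A673 arrays, against 7.71 to 8.02 in SK-N-MC arrays, COL1A1 at 4.46 to 4.53 against 4.78 to 4.90, DCN at 1.37 to 1.70 against 3.10 to 4.17 and FAP at 1.16 to 1.68 against 2.87 to 3.67. LUM, the fifth, was at 1.23 to 1.52 in A673 and 1.26 to 1.38 in SK-N-MC. The mean log2 of the 5 was 2.99 to 3.33 in A673 arrays and 4.06 to 4.39 in SK-N-MC arrays. Of the 5 epithelial markers, KRT18 was at 8.11 to 8.24 in A673, against 7.53 to 8.57 in SK-N-MC, and KRT8 at 5.61 to 5.84, against 4.77 to 5.91, neither called between the lines. EPCAM was lower in A673, at 1.33 to 1.59, against 1.68 to 2.26 in SK-N-MC, and CDH1 and KRT19, not called, lay between 1.45 and 2.62 in all arrays. The part of these marker differences in the histone results was not tested.

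Between the lines, 33 of the 57 histone values were higher in A673, 10 were lower and 14 did not pass the threshold, a Benjamini-Hochberg adjusted p under 0.05 from limma over all 18417 genes. Over all genes 13.5% were called higher and 11.4% lower. The median histone difference was 0.70 on the log2 scale, against -0.02 over all genes. This difference between the lines had been seen in these data before the gene list was drawn up, so it is no independent evidence that histone genes differ. The 3 arrays of A673 lay entirely above the 3 of SK-N-MC for 34 histone values (19.4% of all genes did so) and entirely below for 11 (18.5% of all genes). Without the A673 siRNA 3 array 6 values were called lower. With only genes of a mean log2 of at least 4 over the 6 arrays, 18 of the 34 values left were higher and 10 lower, where 24.2% of all genes in that fit were higher and 18.3% lower. Of these 18, 14 had an SK-N-MC mean under 4 and passed the filter through their A673 level, so nothing is read from that count. In RNA of whole cultures, fewer cells making a transcript and less of it in each cell cannot be told apart.

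**Figure D1:**
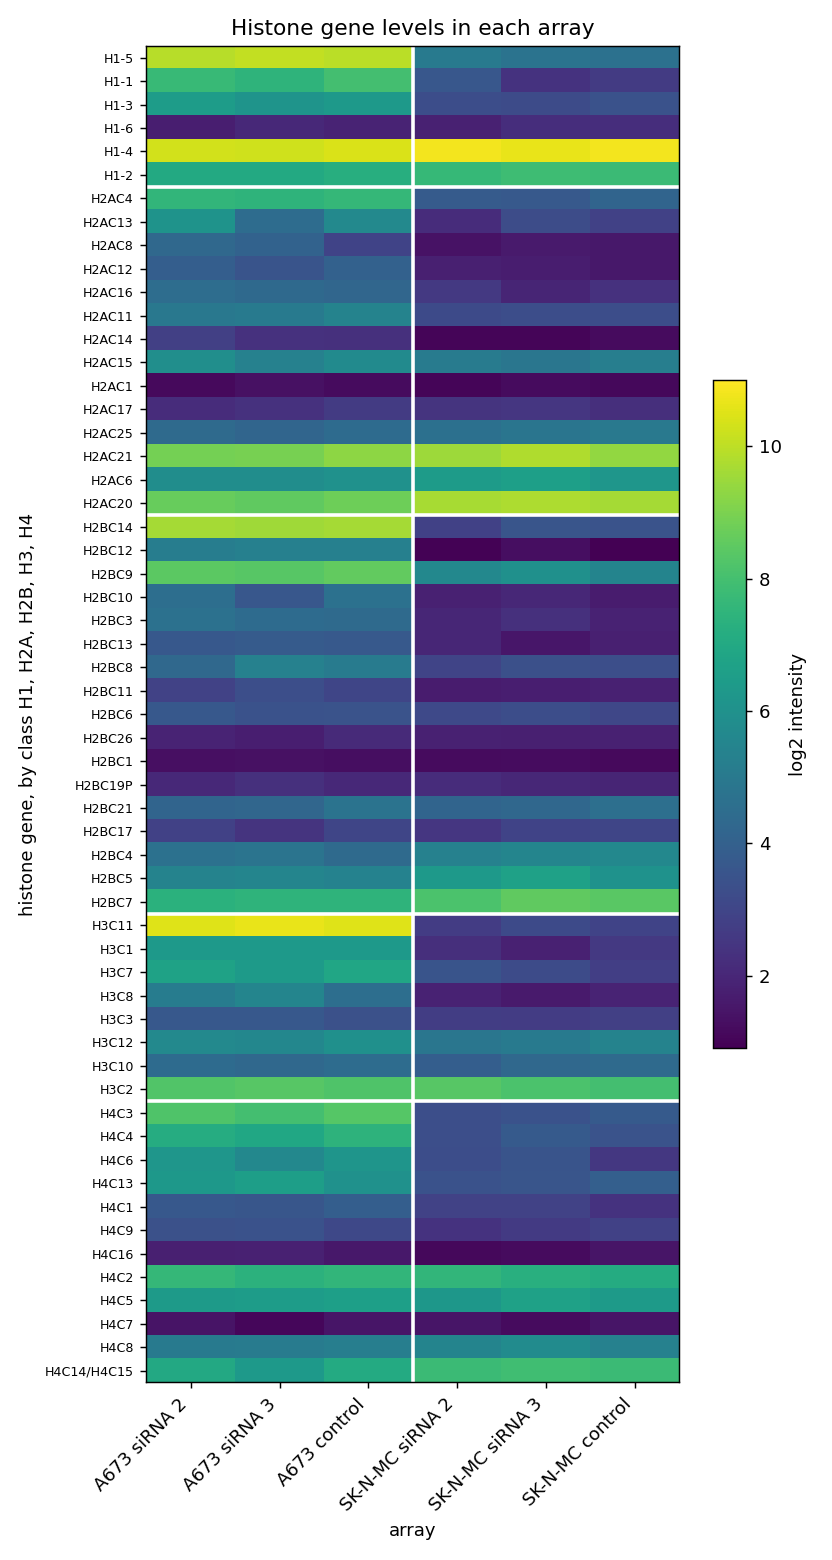
Log2 intensity of the 57 histone values (rows, by class and within a class by the difference between lines) in each of the 6 arrays (columns, A673 left of SK-N-MC). Colour runs from dark, low, to yellow, high, and the upper rows of each class are bright in A673 and dark in SK-N-MC, while rows such as H1-4 and H2AC20 are bright in both lines.

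The linker histones went both ways. Of 6 values, 3 were higher in A673, 2 were lower and H1-6, the testis form, was not called (all genes: 13.5% higher, 11.4% lower). H1-5 was at 9.92, 10.08 and 9.95 in the siRNA 2, siRNA 3 and control arrays of A673, against 5.01, 4.74 and 4.66 in SK-N-MC. The lowest A673 array was 4.92 above the highest SK-N-MC array on the log2 scale, and the difference was 5.18 ± 0.12 (SE; limma adjusted p 1.93e-07), or 36.3-fold on the intensity scale. H1-1 was at 7.71, 7.47 and 7.96 in A673, against 3.66, 2.38 and 2.65 in SK-N-MC, a difference of 4.82 ± 0.31 (limma adjusted p 1.84e-05), with the SK-N-MC siRNA 2 array standing above the other two of its line. H1-3 was at 6.47, 6.12 and 6.32 in A673, against 3.27, 3.22 and 3.46 in SK-N-MC, 7.90-fold higher in A673.

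H1-2 and H1-4 are 2 further linker histones made in many cell types. H1-4 was at 10.30, 10.27 and 10.44 in A673, against 10.81, 10.66 and 10.80 in SK-N-MC, while H1-2 was at 7.03, 7.05 and 7.24 in A673, against 7.67, 7.88 and 7.77 in SK-N-MC. Both were lower in A673 in every array, by a log2 difference of -0.42 ± 0.11 for H1-4 (limma adjusted p 0.0189) and -0.67 ± 0.11 for H1-2 (limma adjusted p 0.00307). The call of H1-4 was lost in several alternatives, with an adjusted p of up to 0.0743 without A673 siRNA 3. H1-6 lay between 1.73 and 2.07 in A673 and between 1.84 and 2.22 in SK-N-MC, and these arrays overlapped.

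The start-site regions of H1-5, the linker gene with the largest difference, and of H1-2, the one with the lowest, are shown because the same short elements stand in both. Each run is the 160 bases just before the start of the gene on its own strand, from RefSeq on GRCh38.p14, at chr6:27867589-27867748 (minus strand) for H1-5 and chr6:26056471-26056630 (minus strand) for H1-2. Capitals mark AAACACA, known as the H1 box, and CCAAT or its other strand ATTGG, known as the CCAAT box.
H1-5: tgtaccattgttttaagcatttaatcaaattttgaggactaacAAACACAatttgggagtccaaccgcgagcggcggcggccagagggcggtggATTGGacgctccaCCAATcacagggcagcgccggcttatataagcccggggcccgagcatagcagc
H1-2: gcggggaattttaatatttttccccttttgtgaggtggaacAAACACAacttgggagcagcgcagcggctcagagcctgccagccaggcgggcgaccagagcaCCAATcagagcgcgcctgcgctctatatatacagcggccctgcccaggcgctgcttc
The first base of the H1 box stands 117 bases before the start in H1-5 and 119 bases before it in H1-2, while their line differences were 5.18 and -0.67.

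**Figure D2:**
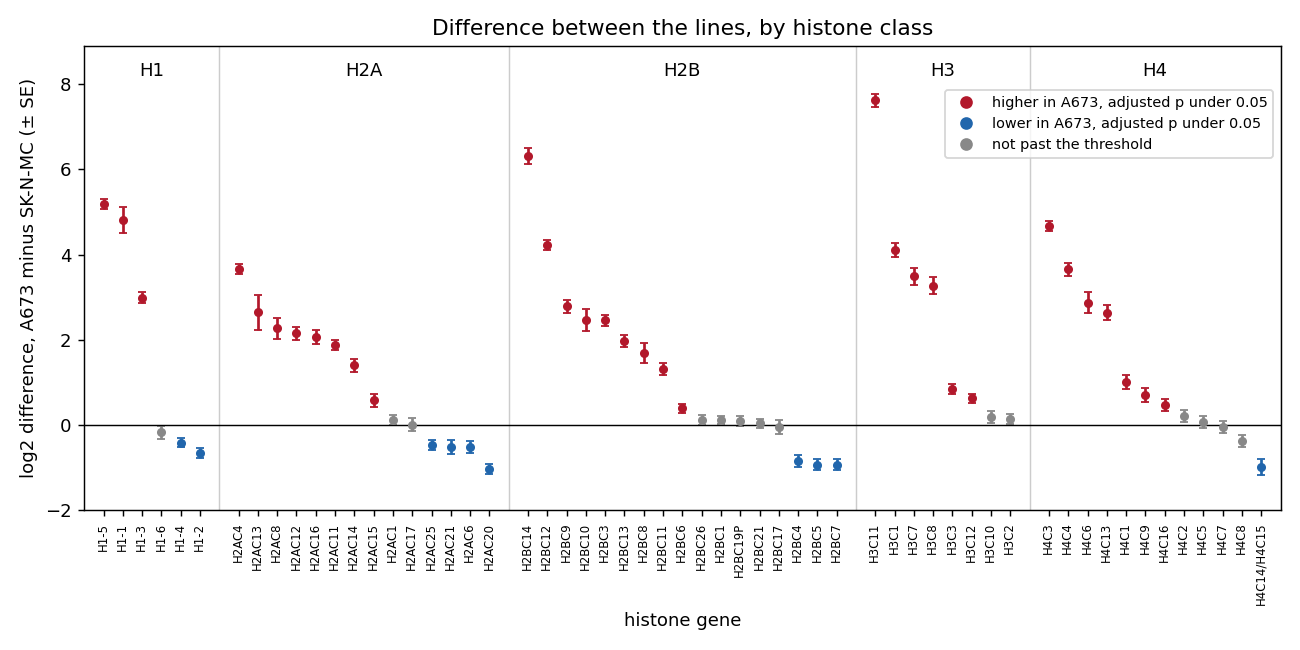
Log2 difference, A673 minus SK-N-MC, of each histone value with its SE, grouped by class (x axis, genes). Points above 0 are higher in A673, colour gives the limma call, and H3C11 at 7.62 and H2BC14 at 6.31 stand highest, while the lowest is H2AC20 at -1.04.

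Of 14 H2A values, 8 were higher in A673, 4 were lower and 2 were not called (all genes: 13.5% higher, 11.4% lower). Their median difference was 0.98. H2AC4 was at 7.53, 7.46 and 7.63 in the siRNA 2, siRNA 3 and control arrays of A673, against 3.79, 3.71 and 4.14 in SK-N-MC, 12.6-fold higher in A673 (log2 difference 3.66 ± 0.11, limma adjusted p 5.07e-07). H2AC13 was at 6.07, 4.46 and 5.65 in A673, against 2.17, 3.24 and 2.86 in SK-N-MC, so the arrays of A673 differed among themselves by more than 1 log2 unit and still lay above all of SK-N-MC. Its difference was 2.64 ± 0.41 (limma adjusted p 0.00183), and was not called on a log2(value + 16) scale. H2AC8 was at 4.33, 4.09 and 2.95 in A673, against 1.39, 1.61 and 1.56 in SK-N-MC, a difference of 2.27 ± 0.25 (limma adjusted p 3.30e-04), and the A673 control was the lowest of its line.

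The lower H2A genes included the 3 measured on chromosome 1. H2AC20 was at 8.65, 8.52 and 8.77 in A673, against 9.68, 9.74 and 9.63 in SK-N-MC, a difference of -1.04 ± 0.11 (limma adjusted p 3.01e-04), the lowest of all 57. H2AC21 and H2AC25, also on chromosome 1, differed by -0.52 and -0.48. H2AC6, on chromosome 6, was at 5.84, 5.83 and 6.02 in A673, against 6.44, 6.62 and 6.20 in SK-N-MC, a difference of -0.52 ± 0.14 (limma adjusted p 0.0233), and its call was lost when any 1 siRNA array was left out. The other five called H2A values, H2AC11, H2AC12, H2AC14, H2AC15 and H2AC16, were higher in A673 by 0.58 to 2.15. H2AC1, a testis form, and H2AC17 were not called.

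Of 17 H2B values, 9 were higher in A673, 3 were lower and 5 were not called (all genes: 13.5% higher, 11.4% lower). Their median difference was 0.38. H2BC14 was at 9.64, 9.58 and 9.64 in A673, against 2.87, 3.57 and 3.49 in SK-N-MC. The groups were 6.01 apart at their nearest arrays, and the difference was 6.31 ± 0.18 (limma adjusted p 4.41e-07), or 79.5-fold. H2BC12 was at 5.18, 5.32 and 5.29 in A673, against 0.96, 1.26 and 0.91 in SK-N-MC, a difference of 4.22 ± 0.13 (limma adjusted p 4.99e-07). The SK-N-MC values of H2BC12 lie at the bottom of the intensity range, where the table holds no detection calls. H2BC9 was at 8.45, 8.36 and 8.58 in A673, against 5.63, 5.98 and 5.46 in SK-N-MC, 6.86-fold higher in A673.

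The lower H2B genes were H2BC7, H2BC5 and H2BC4. H2BC7 was at 7.35, 7.45 and 7.46 in A673, against 8.12, 8.53 and 8.43 in SK-N-MC, a difference of -0.94 ± 0.13 (limma adjusted p 0.00113). H2BC5 was at 5.43, 5.49 and 5.36 in A673, against 6.35, 6.67 and 6.05 in SK-N-MC, a difference of -0.93 ± 0.13 (limma adjusted p 0.00128). H2BC4 differed by -0.86 ± 0.14 (limma adjusted p 0.00261). All A673 arrays of these 3 genes lay below all SK-N-MC arrays. Not called were H2BC1, the testis H2B, H2BC17, H2BC21, H2BC26 and H2BC19P, which RefSeq lists as a pseudogene.

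The regions before H2BC14 and H2BC7, the H2B genes at the ends of the order, are shown for the element that sets H2B promoters apart in textbooks, the octamer read by the factor POU2F1. Each run is again the 160 bases before the start on GRCh38.p14 from RefSeq, at chr6:27814862-27815021 (plus strand) for H2BC14 and chr6:26199356-26199515 (plus strand) for H2BC7. Capitals mark the octamer ATTTGCAT and the CCAAT box as CCAAT or ATTGG.
H2BC14: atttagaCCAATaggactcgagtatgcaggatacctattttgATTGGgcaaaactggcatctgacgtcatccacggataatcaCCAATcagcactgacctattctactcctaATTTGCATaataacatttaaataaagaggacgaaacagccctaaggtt
H2BC7: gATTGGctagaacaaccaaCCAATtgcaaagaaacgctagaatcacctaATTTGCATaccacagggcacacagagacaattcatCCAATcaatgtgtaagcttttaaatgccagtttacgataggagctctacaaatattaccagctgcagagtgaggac
The first base of the octamer stands 48 bases before the start in H2BC14 and 111 bases before it in H2BC7, and both runs hold 3 CCAAT boxes.

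Of 8 single-symbol H3 values, 6 were higher in A673, 0 were lower and 2 were not called (all genes: 13.5% higher, 11.4% lower). Their median difference was 2.05. H3C11, older name HIST1H3I, was at 10.51, 10.67 and 10.51 in A673, against 2.70, 3.18 and 2.95 in SK-N-MC. The difference of 7.62 ± 0.14 (limma adjusted p 1.93e-07), or 197-fold on the deposited intensities, was the highest fitted difference of all 18417 genes. The SK-N-MC arrays of H3C11 lay below the median of all genes, and without detection calls it is unknown how much of that level is background, so the fold may not equal the ratio of RNA amounts. H3C1 was at 6.36, 6.31 and 6.32 in A673, against 2.26, 1.82 and 2.58 in SK-N-MC, 17.3-fold higher in A673. H3C7 was at 6.70, 6.41 and 6.88 in A673, against 3.52, 3.21 and 2.79 in SK-N-MC, 11.2-fold higher in A673. H3C8, H3C3 and H3C12 were higher by 3.27, 0.83 and 0.62 on the log2 scale.

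Not every H3 copy followed. H3C2 was at 8.27, 8.38 and 8.23 in A673, against 8.36, 8.12 and 7.99 in SK-N-MC, and H3C10 at 4.44, 4.32 and 4.46 in A673, against 3.94, 4.31 and 4.41 in SK-N-MC. The arrays of the lines overlapped for both, with differences of 0.14 ± 0.12 and 0.18 ± 0.13. Probe sets with several symbols also held H3 genes. Those listing H3C13, H3C14 and H3C15 together had differences of -0.45, -0.41 and -0.39, and that listing H3C4 and H2AC7 -0.94. In each, all A673 arrays lay below those of SK-N-MC. Those listing H3C11 with H3C6 and H3C10 with H2AC13 lay above in A673, by 0.42 and 0.90.

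Of 12 H4 values, 7 were higher in A673, 1 was lower and 4 were not called (all genes: 13.5% higher, 11.4% lower). Their median difference was 0.58. The H4 genes encode nearly all the same protein. These counts concern RNA read by probe sets named for single copies, which may also catch RNA of other copies. H4C3 was at 8.22, 7.99 and 8.36 in A673, against 3.33, 3.46 and 3.75 in SK-N-MC, a difference of 4.68 ± 0.11 (limma adjusted p 1.93e-07), or 25.6-fold. H4C4 was at 7.14, 6.93 and 7.42 in A673, against 3.31, 3.77 and 3.47 in SK-N-MC, 12.5-fold higher in A673. H4C6 was at 6.20, 5.62 and 6.17 in A673, against 3.30, 3.54 and 2.56 in SK-N-MC, with the SK-N-MC control lowest.

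H4C13, H4C1, H4C9 and H4C16, the single copy on chromosome 12, were higher in A673 by 2.63, 1.01, 0.70 and 0.46 on the log2 scale. H4C16 was dim, at 1.54 to 1.82 in A673 arrays and 1.13 to 1.46 in SK-N-MC arrays (limma adjusted p 0.0416). Without detection calls it is unknown how much of that level is background. The shared value of H4C14 and H4C15, on chromosome 1, was at 7.01, 6.38 and 7.07 in A673, against 7.77, 7.89 and 7.77 in SK-N-MC, a difference of -0.99 ± 0.18 (limma adjusted p 0.00417). Another reading came from probe sets that list both of these symbols and hold the same value as each other in every array. It averaged 4.39 in A673 and 4.58 in SK-N-MC, a difference of -0.19, and its arrays overlapped between the lines. H4C8 was at 5.08, 5.10 and 5.20 in A673, against 5.44, 5.78 and 5.32 in SK-N-MC. All A673 arrays of H4C8 lay below those of SK-N-MC, but the difference of -0.39 ± 0.14 did not pass (limma adjusted p 0.0805), though it did after a second quantile normalization. H4C2, H4C5 and H4C7 overlapped between the lines.

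By position, the calls were uneven. On chromosome 6, 32 of 49 values were higher in A673, 6 were lower and 11 were not called, with a median difference of 1.39. On chromosome 1, 0 of 7 were higher and 4 were lower, with a median of -0.48. Of all genes, 13.5% were called higher and 11.4% lower. Members on chromosome 6 were grouped into blocks of neighbours separated by a gap of over 200 kb. The 6 lower chromosome 6 genes, H1-2, H1-4, H2AC6, H2BC4, H2BC5 and H2BC7, all lie in the same block of 29 genes, of which 17 were higher. In the other blocks of that chromosome, all 5 genes of the block from H2BC11 to H2AC12 were higher, as were 10 of the 13 genes from H2BC13 to H2BC17 with 0 lower, and H2AC1 and H2BC1 were not called. No test of the difference between blocks or chromosomes was run. Probe sets with several histone symbols, which name no gene, had differences between -0.94 and 3.95, inside the range of the single-symbol values.

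**Figure D3:**
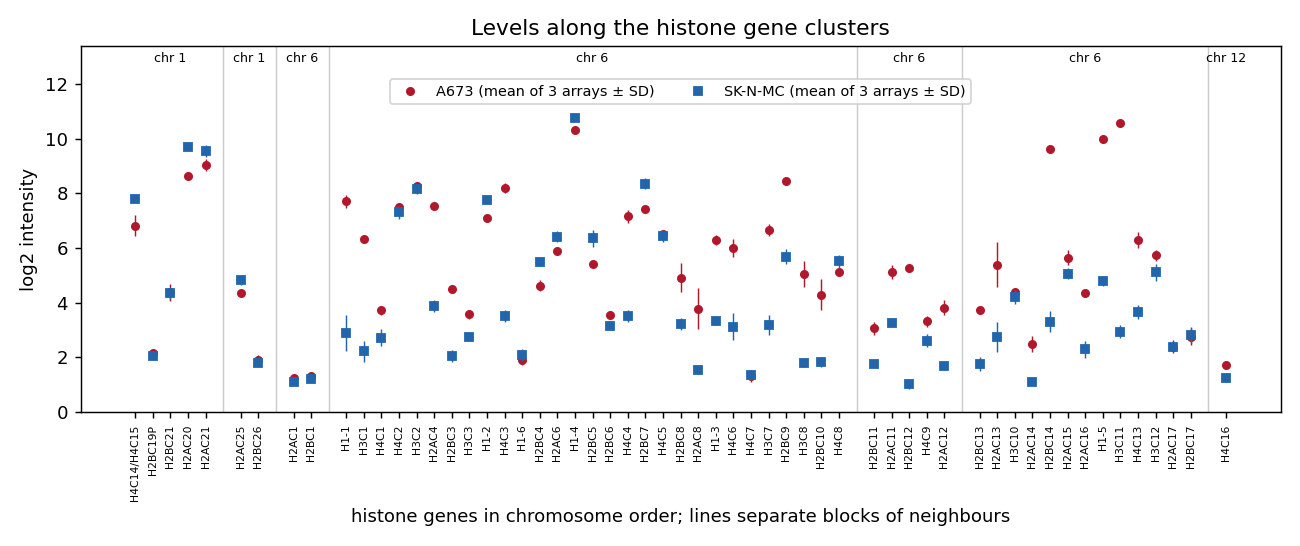
Mean log2 intensity of each histone value in A673 (red circles) and SK-N-MC (blue squares) with the SD over 3 arrays, in chromosome order, with vertical lines between blocks of neighbours. On chromosome 1 the squares lie at or above most circles, and all 5 genes from H2BC11 to H2AC12 and 10 of the 13 from H2BC13 to H2BC17 were called higher in A673.

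By their single-symbol values, head-to-head pairs did not always move together. Pairs could be sought only among the 52 members with a start site in the RefSeq promoter set, so pairs with the 6 others were missed. Among these 52, the starts of 10 pairs lie within 1000 bases of each other on opposite strands. Of these pairs, 9 join an H2A with an H2B gene and 1 is the pair H3C7 and H2BC9. In 5 of the pairs both genes were called higher in A673 (H2BC8 with H2AC8, H3C7 with H2BC9, H2BC11 with H2AC11, H2BC13 with H2AC13, H2AC14 with H2BC14). In H2BC4 with H2AC6 both were lower, and in H2AC1 with H2BC1 and H2AC17 with H2BC17 neither was called. Taken singly, 13.5% of all genes were called higher and 11.4% lower. In the pairs of chromosome 1, 1 gene was lower and the other was not called, H2AC20 at -1.04 beside H2BC21 at 0.04, and H2AC25 at -0.48 beside H2BC26 at 0.12. The means of H2BC21 were 4.38 in A673 and 4.34 in SK-N-MC, and those of H2BC26 only 1.92 and 1.81. A brighter probe set listing H2BC19P, H2BC20P and H2BC21 averaged 8.21 in A673 and 8.82 in SK-N-MC. Its difference was -0.61, with all A673 arrays below. Another, listing H2BC18, H2BP1 and H2BC21, averaged 3.51 and 3.30, and its arrays overlapped. The pair with the widest gap was H2AC14 and H2BC14, whose starts are 245 bases apart. H2AC14 was at 2.82, 2.35 and 2.28 in A673, against 1.04, 1.02 and 1.21 in SK-N-MC, a difference of 1.39, while H2BC14 differed by 6.31.

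The calls were also uneven by level. Of the 37 members with an SK-N-MC mean log2 under 4, 29 were higher in A673 and 0 were lower, where 9.90% of all genes at that level were higher and 6.08% lower. Of the 11 members at 6 or more in SK-N-MC, 0 were higher and 8 were lower, where 16.1% of all genes at that level were higher and 23.8% lower. The SK-N-MC level enters the difference itself, so this is a description and not a test. In A673, 39 of 57 members had a mean log2 of 4 or more and 21 of 6 or more, against 20 and 11 members in SK-N-MC. The median level was 5.13 in A673 and 3.18 in SK-N-MC, against 3.22 and 3.24 over all genes, and the median SD over the 3 arrays of a line was 0.16 in A673 and 0.21 in SK-N-MC.

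Promoter elements were counted in the 250 bases before the start of each gene, on both strands, in the RefSeq table, which matched 52 of the 58 members and holds 27305 genes in all. The TATA box, spelled here as TATAAA, was in 34 of the 52 (65.4%, against 11.1% of all promoters), and CCAAT in 44 (84.6%, against 33% of all). The octamer was in 23 (44.2%, against 1.66% of all), 10 of 13 H2A and 13 of 16 H2B windows and 0 of the others. AAACACA was in all 6 H1 windows and 0 others (4.95% of all promoters). CCAAT was in every H1, H2A, H2B and H3 window but in 3 of 11 H4 windows. The windows of head-to-head pairs overlap, so an octamer can count for both genes. None of the 4 motifs holds another in its letters.

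These elements stood in both sets of genes. Windows are counted here per gene, so H4C14 and H4C15, which share 1 value and hold none of these motifs, are both among the 11 lower ones. TATAAA was in 19 of 28 windows of genes higher in A673, 6 of 11 of those lower and 9 of 13 of those not called. For the octamer these counts were 13 of 28, 5 of 11 and 5 of 13, and for CCAAT 26 of 28, 9 of 11 and 9 of 13. A match describes these letters in these windows and does not show that a factor binds there.

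Among the 23 measured genes of histone mRNA control and 3′ processing, 3 were higher in A673 and 4 lower, with a median difference of 0.02. Shares over all genes were 13.5% higher and 11.4% lower. NPAT was at 5.60, 5.74 and 5.71 in the siRNA 2, siRNA 3 and control arrays of A673, against 4.56, 4.47 and 4.72 in SK-N-MC, 2.14-fold higher in A673 (limma adjusted p 1.78e-04). The cyclin E genes lay the other way. CCNE1 was at 3.96, 3.96 and 3.94 in A673, against 5.27, 5.28 and 5.78 in SK-N-MC, and CCNE2 at 3.63, 3.86 and 3.92 in A673, against 5.20, 5.27 and 5.50 in SK-N-MC, with differences of -1.49 ± 0.13 and -1.52 ± 0.11 (limma adjusted p 1.06e-04 and 3.81e-05). The arrays of the lines did not overlap for these 3 genes.

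SLBP, which binds the stem-loop, was lower in A673 by a log2 difference of -0.39 ± 0.10 (limma adjusted p 0.0269), and ERI1, an exonuclease that trims that end, was higher by 0.58 ± 0.14 (limma adjusted p 0.0149). CPSF3, the nuclease that cuts the 3′ end, was higher by 0.46 ± 0.11 (limma adjusted p 0.0166), and TENT4A was lower by -0.40 ± 0.12 (limma adjusted p 0.0421). The other 16 measured genes of the list were not called.

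**Figure D4:**
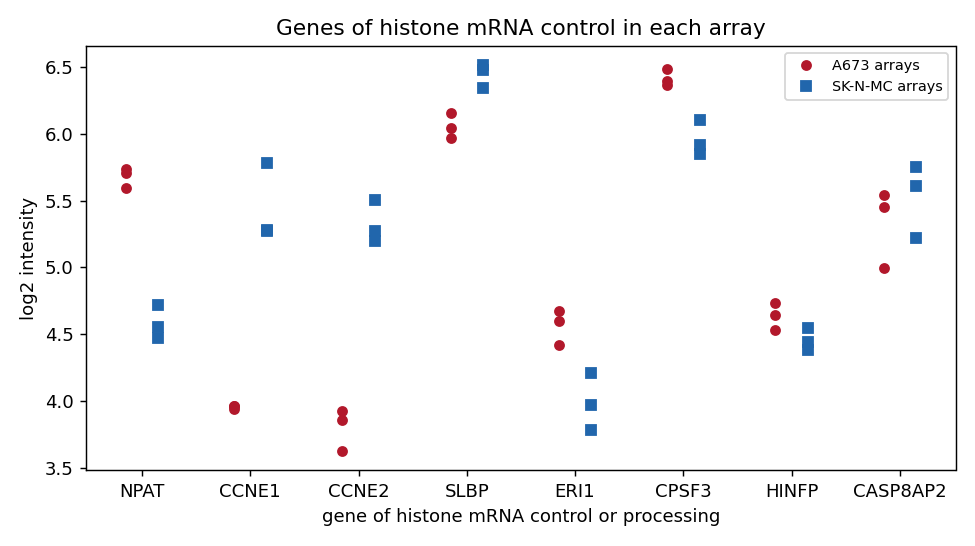
Log2 intensity of 8 genes of histone mRNA control and processing (x axis) in the 3 A673 arrays (red circles) and the 3 SK-N-MC arrays (blue squares). NPAT lies higher in A673 and CCNE1 and CCNE2 lower, while HINFP and CASP8AP2 were not called.

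Of 24 measured S phase genes, 8 were higher in A673 and 3 lower, where 13.5% of all genes were higher and 11.4% lower. Their median difference was 0.25, with a median level of 6.94 to 7.03 in A673 arrays, against 6.66 to 6.81 in SK-N-MC arrays. CDT1 and GINS2, which load and complete the replicative helicase, were higher by 1.14 ± 0.11 and 1.61 ± 0.16, and MCM5, a helicase subunit, and TYMS, the thymidylate synthase, by 0.80 ± 0.10 and 1.13 ± 0.15 (limma adjusted p between 1.57e-04 and 8.87e-04). CDC6, MCM3 and SLBP were the lower ones, at -0.70, -0.55 and -0.39. The part of S phase genes in the histone difference was not tested.

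Of 20 histone chaperones, which carry histones to DNA, 3 were higher and 2 lower, where 13.5% of all genes were higher and 11.4% lower. HJURP, the CENP-A chaperone, and SSRP1, a subunit of FACT, were higher by 0.85 ± 0.11 and 0.66 ± 0.12, CHAF1B, a subunit of the CAF-1 complex, by 0.74 ± 0.16, and RBBP7 and DAXX were lower by -0.68 ± 0.10 and -0.51 ± 0.14 (limma adjusted p between 6.06e-04 and 0.0270). Of 9 measured histone variants outside the symbol rule, 2 were higher, MACROH2A2 by 1.43 ± 0.11 and H2AX by 1.37 ± 0.16 (limma adjusted p 5.47e-05 and 4.00e-04), and 0 were lower. H2AZ1, MACROH2A1 and H3-3B, which encode variants made throughout the cell cycle, were not called, with differences of 0.37, -0.04 and -0.06.

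Of 23 genes that lie among or beside the clusters but encode no histone, 3 were higher and 3 lower, with a median of -0.05. Shares over all genes were 13.5% higher and 11.4% lower. SV2A, on chromosome 1, was at 4.93, 4.85 and 4.74 in A673, against 2.43, 2.36 and 2.29 in SK-N-MC, a difference of 2.48 ± 0.10 (limma adjusted p 2.34e-06). HFE, the hemochromatosis gene of chromosome 6, was higher by 0.94 and BOLA1 by 0.82, and PRSS16, ABT1 and ZNF322 were lower, at -0.83, -0.65 and -0.73.

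The study's own question was the response to STEAP1 silencing. Across both lines, 0 of the 57 histone values were called by limma, as were 0% of all genes, and 3 had an unadjusted p under 0.05 (4.63% of all genes did). The lowest adjusted p of a member was 0.989, the median difference was -0.03, against -0.01 over all genes, and the range was -0.46 to 0.60. With 1 control array in each line, both siRNA arrays of a line are set against the same array. STEAP1, the target itself, was not called either, with a difference of -2.18 ± 0.24 (limma adjusted p 0.293). Its difference was -2.70 within SK-N-MC (limma adjusted p 0.0681) and -1.67 within A673, neither past the threshold. Counts of 0 called therefore do not show that histone genes did not respond. In all 4 siRNA arrays 5 members lay above their control (10.6% of all genes did so) and 8 lay below (11.2% of all genes), which is near the share of genes in general.

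H2BC21, an H2B copy of chromosome 1, was at 4.17 and 4.22 in the A673 siRNA 2 and siRNA 3 arrays, against 4.75 in the A673 control. In SK-N-MC it was at 4.17 and 4.27 with siRNA, against 4.58 in the SK-N-MC control. H3C12 was at 5.67 and 5.56 in the A673 siRNA arrays, against 5.97 in the control, and at 4.86 and 5.03 in SK-N-MC, against 5.43 in the control. Both lay below their control in 4 of 4 arrays, with differences of -0.46 ± 0.11 and -0.42 ± 0.12 that did not pass (limma adjusted p 0.989 each). H4C3, H2BC17 and H2AC4 also lay below in all 4 arrays, at -0.31, -0.35 and -0.26.

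Above their control in all 4 arrays were H2BC5, H2BC3, H3C2, H2BC19P and H2BC1, by mean differences of 0.07 to 0.28, none of which passed. H2BC5 was at 5.43 and 5.49 in the A673 siRNA arrays, against 5.36 in the control, and at 6.35 and 6.67 in SK-N-MC, against 6.05 in the control.

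**Figure D5:**
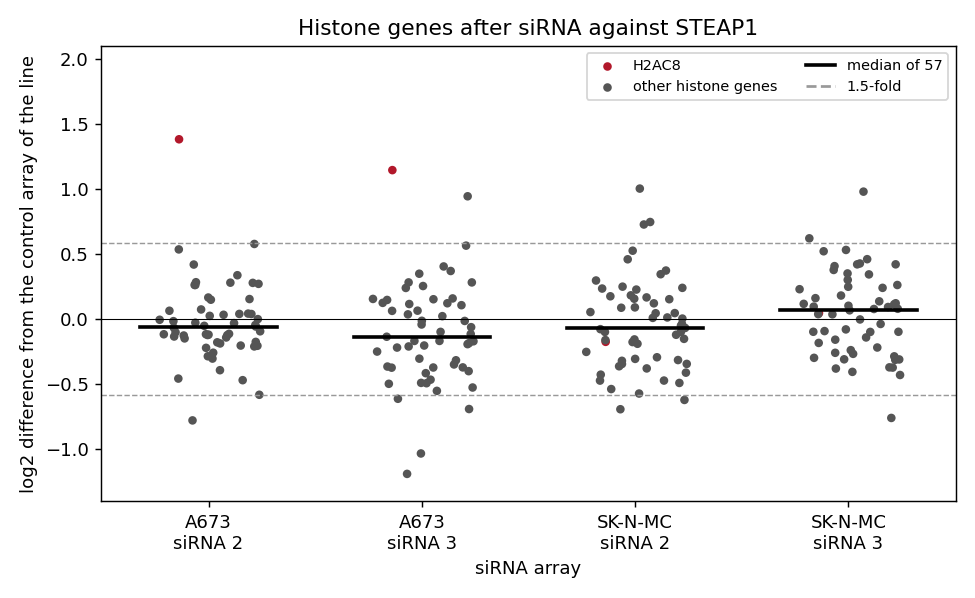
Log2 difference of each of the 57 histone values from the control array of its line (y axis) in the 4 siRNA arrays (x axis), with the median as a bar and dashed lines at 1.5-fold. The medians lie between -0.14 and 0.07, and H2AC8 (red) stands highest in both A673 arrays, at 1.38 and 1.15.

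Within A673, 0 of 57 values were called (0% of all genes), 4 had an unadjusted p under 0.05 (3.35% of all genes did), and the median was -0.11. Of the 57 values, 21 lay above the control with siRNA 2 and 22 with siRNA 3, where both arrays share that control. Of all 18417 genes, 8916 and 9322 did so. H2AC8 was at 4.33 and 4.09 in the siRNA arrays, against 2.95 in the A673 control, a difference of 1.26 ± 0.19 (limma adjusted p 1.00), the largest positive difference of any gene within A673, though it did not pass. In SK-N-MC the same gene was at 1.39 and 1.61 in the siRNA arrays, against 1.56 in the control. H3C8 was at 5.13 and 5.50 in the A673 siRNA arrays, against 4.56 in the control, and its difference of 0.76 ± 0.21 did not pass either.

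H4C13 and H4C9 lay 0.42 and 0.35 above the A673 control. The lowest responses in A673 were those of H2BC10, H2BC21, H2AC11 and H2AC17, at -0.58, -0.55, -0.42 and -0.39. The siRNA arrays of H2BC10 stood apart from each other, at 4.56 with siRNA 2 and 3.65 with siRNA 3, against 4.68 in the control.

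Within SK-N-MC, 0 of 57 values were called, where 0% of all genes were called higher and 0.00543% (1 gene) lower. The count over all genes rested on single arrays, with 8 lower when the SK-N-MC siRNA 2 array was left out and 60 lower and 1 higher when the SK-N-MC siRNA 3 array was, and 0 histone values were called in either fit. With all arrays, 6 members had an unadjusted p under 0.05 (5.12% of all genes did), and the lowest limma adjusted p was 0.849. The control was exceeded by 26 members with siRNA 2 and 32 with siRNA 3, and by 9031 and 9097 of all 18417 genes. H4C6 was at 3.30 and 3.54 in the siRNA arrays, against 2.56 in the SK-N-MC control, a difference of 0.86 ± 0.26. H3C7 and H4C1 lay 0.57 and 0.53 above the control, and H2BC5 0.46. The lowest were H3C1, H3C12, H4C13 and H2AC4, at -0.54, -0.49, -0.43 and -0.39.

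The difference between the responses, A673 minus SK-N-MC, was called for 0 of 57 values (0% of all genes), with 10 at an unadjusted p under 0.05 (3.86% of all genes were). Leaving out the SK-N-MC siRNA 3 array gave 26 called genes, all with a positive difference and 0 of them histone genes. The ends of the order were H2AC8 at 1.33 ± 0.27 and H4C6 at -1.12 ± 0.37 (limma adjusted p 1.00 each). H4C6 was at 6.20 and 5.62 in the A673 siRNA arrays, against 6.17 in the control, while both SK-N-MC siRNA arrays lay above theirs. H3C8, H4C13 and H4C9 had differences of 0.93, 0.85 and 0.70, and H3C7, H2BC10 and H4C1 of -0.90, -0.83 and -0.79.

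Between siRNA 2 and siRNA 3, 0 of 57 values were called (0% of all genes), 6 had an unadjusted p under 0.05 (6.67% of all genes did), and the lowest adjusted p was 0.572. H2BC8 was at 4.32 with siRNA 2 and 5.34 with siRNA 3 in A673, and at 2.98 with siRNA 2 and 3.38 with siRNA 3 in SK-N-MC, a difference of -0.71 ± 0.17. H1-1 was at 7.71 with siRNA 2 and 7.47 with siRNA 3 in A673, and at 3.66 with siRNA 2 and 2.38 with siRNA 3 in SK-N-MC, a difference of 0.75 ± 0.27 carried mostly by SK-N-MC. H2AC16, H2AC15 and H2BC10 lay 0.40, 0.39 and 0.36 higher with siRNA 2, and H1-6, H3C11 and H2BC14 lay lower with it, at -0.36, -0.32 and -0.32. The sign for H2BC14 turned without SK-N-MC siRNA 2 (0.027) and that for H2BC10 without A673 siRNA 3 (-0.26).

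Of the other lists, 0 genes of histone mRNA control, chaperones, histone variants, S phase and cluster neighbours were called for silencing across lines. Their medians were -0.07, -0.04, -0.01, 0.03 and -0.04. CCNE2 and CCNE1 had the differences -0.22 and -0.24, and PRIM1, a primase subunit, -0.39, none past the threshold.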

How the data were processed

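RNA of A673 and SK-N-MC cells was hybridised to 6 Human Gene ST arrays (Affymetrix). The authors deposited linear intensities, and the submitters' processing notes name RMA and Affymetrix Expression Console 1.1. How RMA's log values were brought back to a linear scale, and the genome build, are not given in the sources used here. There are no detection calls, so the level at which a dim gene is absent is unknown, and precision is limited by the number of arrays.

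Log2 of each deposited intensity was taken without further normalization. Of 33297 probe sets, 19460 carry 1 symbol, 1754 several and 12083 none here. Current symbols were looked up by gene ID in RefSeq GRCh38.p14 (19429 matched). Fits used limma 3.58.1 in R 4.3.3 (lmFit, eBayes, two-sided, Benjamini-Hochberg over 18417 genes). Line and silencing effects came from a fit with both terms (3 residual degrees of freedom), responses within lines and their difference from 4 group means (2 residual degrees of freedom), and the siRNA difference from terms for line, control, siRNA 2 and siRNA 3. siRNA 2 and siRNA 3 were otherwise replicates of silencing. The fits were tested on simulated data.

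The members, the other gene lists and the tests were chosen with earlier results of these data known. Per-array values are given for the 3 largest and 2 smallest line differences of each class, for silencing for the 5 largest and 5 smallest mean differences of 1 sign in all 4 siRNA arrays, and for the other comparisons the 4 largest and 4 smallest, with some of these as differences only. Of other lists, the 4 genes with the smallest p are named, and further ones were named after their values were seen. Blocks (gaps over 200 kb) and pairs (starts within 1000 bases) were defined after the data were seen. Alternatives changed the scaling, offset, filter, probe set, variance model, block and arrays.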

Additional observations from a re-analysis of the deposited data

How the results depend on the processing

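The median line difference kept its sign under the alternatives run on all genes. The median over the histone values was 0.57 with log2(value + 4) and 0.30 with log2(value + 16), since an offset shrinks the differences of dim genes, against 0.70 without one. With genes of a mean log2 of at least 4 only, 34 histone values stayed in the fit, 18 higher in A673 and 10 lower (24.2% and 18.3% of all genes), but 14 of the 18 passed only through their A673 level, so this setting is no support. Leaving out 1 array gave 29 to 31 higher and 6 to 8 lower, with the 6 lower found without A673 siRNA 3, and medians of 0.63 to 0.74. The other alternatives gave 28 to 33 higher and 8 to 10 lower.

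With the siRNA number as a replicate block, 31 histone values were higher and 10 lower, and 0 were called for silencing or for the difference of responses, so the block moved no count by over 1.5 times. In the series' design the number names an siRNA, and whether it also marks a shared culture or day is not stated. Deviations of same-numbered arrays correlated across genes at 0.0663 over all genes, at -0.11 over the histone values and at 0.193 over the 7413 genes left by the filter on dim genes.

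Of the named genes, H1-4 and H2AC6 lost their call most often, with adjusted p up to 0.0743 and 0.0935, H2AC13 lost it with log2(value + 16) (0.0536), and H4C8 gained one at -0.43 under a second quantile normalization (0.0477). Between the siRNAs, the difference of H2BC14 ran from -0.67 to 0.027 when 1 array was left out, with its sign turned without SK-N-MC siRNA 2, and that of H2BC10 from -0.26 to 0.98, turned without A673 siRNA 3. In no alternative was a histone value called in the comparisons of silencing or of siRNAs. No response within a line could be had without its control.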

Other observations

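H3-4, a histone H3 gene of chromosome 1 with the older name HIST3H3 that is best known from testis, was left out because its symbol in the probe annotation matches none of the prefixes searched. It was at 2.61 and 2.66 in the A673 siRNA 2 and siRNA 3 arrays, against 3.01 in the A673 control. In SK-N-MC it was at 2.67 and 2.45 with siRNA, against 3.10 in the SK-N-MC control. It lay below the control in 4 of 4 siRNA arrays, with a difference of -0.46 ± 0.12 that did not pass (limma adjusted p 0.989), and the lines differed by 0.02.

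Probe sets that list several histone symbols cannot be tied to 1 gene. The one listing H2BC12, H2BC12L, H2BC17 and H2BC5 averaged 9.49 in A673 and 5.54 in SK-N-MC, a difference of 3.95. The one listing H3C4 and H2AC7 averaged 8.13 in A673 and 9.08 in SK-N-MC, and the arrays of both probe sets did not overlap between the lines.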
